A study of Mus musculus with 23 samples.

Results

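Sulf2, which encodes an extracellular sulfatase of heparan sulfate, was examined together with the enzymes that build and modify this polysaccharide: Sulf1, Ext1, Ext2, Extl3, Ndst2, Hs2st1, Hs6st1 and Glce. The members were taken by gene symbol from a list of 10 heparan sulfate genes. Of these, 9 had probe sets, 22 in all, among the 18193 genes with values, and all 9 lay above the filter on low values in all 23 arrays. Ndst1 is not analysed here. Sulf2 itself was chosen by its measured level, which was raised in every p53 form against cells without p53, so its differences from those cells are given as a description, with no test.

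The 23 arrays measured RNA of mouse embryonic fibroblasts, 1 array per sample. All samples carried retroviral H-Ras V12, an oncogene that drives wild-type fibroblasts into premature senescence, so no sample here lacks it. The p53 alleles lay behind a lox-stop-lox cassette (LSL), which Cre recombinase, delivered by adenovirus, removes. The 53,54 group (n = 3) carried p53 changed in its second activation domain, and the 25,26 group (n = 5) carried p53 changed in its first activation domain. The QM group (n = 3) carried both sets of changes. These samples had LSL alleles and received Cre virus. The WT group (n = 6) joined 3 LSL-WT samples with Cre virus (LSL-WT Cre, replicates 1 to 3) and 3 WT samples with Cre virus (WT Cre, replicates 4 to 6). The Null group (n = 6) joined 3 LSL-WT samples with an empty adenovirus (LSL-WT Empty, replicates 1 to 3) and 3 p53 null samples with Cre virus (Null Cre, replicates 4 to 6). The strain was 129/Sv in 1 of 3 samples of 53,54, 4 of 5 of 25,26, 2 of 3 of QM, 3 of 6 of WT and 4 of 6 of Null, and a mix of 129/Sv and C57BL6 in the others. Labels clash in WT replicate 6, titled WT but with an LSL-WT genotype, and the genotype of Null replicate 6 mentions a knock-in. The labels do not name embryos or cultures, so p-values measure only the spread between these samples.

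Heparan sulfate is a chain of alternating sugars attached to core proteins at the cell surface and in the matrix. Ext1 and Ext2 together lengthen the chain, and Extl3 adds its first glucosamine. Ndst enzymes then replace acetyl by sulfate groups, Glce epimerises glucuronic acid, and Hs2st1 and Hs6st1 add sulfates to the oxygen at position 2 of the uronic acid and position 6 of the glucosamine. Sulf1 and Sulf2 act outside the cell and remove 6-O-sulfates from finished chains, which changes how the chains bind growth factors such as FGFs, VEGF and Wnt proteins. In human cells SULF2 is known as a gene that p53 induces.

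The promoter windows of Sulf2 are shown because Sulf2 had the widest spread of levels among the members, and that of Ext2 because it was the only member window with a match to the p53 half-site consensus. The windows are the 250 bases before the annotated start from RefSeq (GRCm38.p6), which held 7 windows for 6 members. Both Sulf2 windows lie on the minus strand, at chr2:166155684-166155933 and chr2:166155286-166155535. The Ext2 window lies on the minus strand at chr2:93822569-93822818. Capitals mark the half-site match, which was searched on both strands.
Sulf2, upstream window: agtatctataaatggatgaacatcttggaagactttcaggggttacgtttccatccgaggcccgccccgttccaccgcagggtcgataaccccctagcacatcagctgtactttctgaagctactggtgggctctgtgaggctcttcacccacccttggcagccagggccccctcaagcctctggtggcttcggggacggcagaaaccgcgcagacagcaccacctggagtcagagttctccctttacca
Sulf2, downstream window: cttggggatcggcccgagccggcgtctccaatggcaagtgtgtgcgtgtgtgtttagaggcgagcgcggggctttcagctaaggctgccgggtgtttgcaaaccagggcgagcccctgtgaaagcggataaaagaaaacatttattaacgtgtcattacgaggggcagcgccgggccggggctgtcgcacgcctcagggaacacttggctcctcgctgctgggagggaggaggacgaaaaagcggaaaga
Ext2: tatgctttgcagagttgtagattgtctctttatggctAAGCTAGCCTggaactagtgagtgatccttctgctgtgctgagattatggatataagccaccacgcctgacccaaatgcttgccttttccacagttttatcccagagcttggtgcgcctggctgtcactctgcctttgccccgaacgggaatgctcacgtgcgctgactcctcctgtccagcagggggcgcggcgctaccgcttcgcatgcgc
The Ext2 match began 213 bases before the start. The half-site consensus was found in 7.13% of 32851 windows of the same kind. The 4 letters CATG, a common form of the centre of the half-site, were in neither Sulf2 window, were in 53.9% of all windows, and were also in the Ext2 window outside the capitals. A match is a description of letters, and the absence of one says only that these letters are not in the window.

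Sulf2 was high in 53,54, 25,26 and WT samples, low in Null samples and between these in QM samples. On a log2 scale the probe set that represents Sulf2 (1447602_x_at) stood at 13.03, 13.59 and 13.24 in the 53,54 samples. It stood at 12.31, 12.23, 13.00, 12.47 and 12.60 in the 25,26 samples and at 9.54, 9.05 and 10.02 in the QM samples. The 6 WT samples ranged from 12.53 to 13.15 with a median of 12.96, and the 6 Null samples from 7.07 to 8.45 with a median of 7.95. No sample of any p53 form overlapped the Null samples. Against Null the log2 difference was 5.39 ± 0.25 (SE) in 53,54, a 42-fold difference. In 25,26 it was 4.63 ± 0.21, a 24.7-fold difference, in QM 1.64 ± 0.25 or 3.12-fold, and in WT 5.02 ± 0.20 or 32.6-fold. These values chose the gene and carry no test. Groups that do not overlap were found for 19.7% of genes tested in the comparison of 53,54 with Null, 5.00% in 25,26 with Null, 1.43% in QM with Null and 10.2% in WT with Null.

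The order of the mean log2 levels was 53,54 (13.29 ± 0.28, SD), WT (12.92 ± 0.21), 25,26 (12.52 ± 0.30), QM (9.54 ± 0.49) and Null (7.89 ± 0.49). Neighbours in the upper part of this order did not differ beyond their spread. The difference of 53,54 from WT was 0.37 ± 0.25 (95% interval -0.14 to 0.88, limma adjusted p = 0.822). The difference of 25,26 from WT was -0.40 ± 0.21 (95% interval -0.83 to 0.04, limma adjusted p = 0.303). The share of all tested genes called was 0.367% in the comparison of 53,54 with WT and 7.70% in that of 25,26 with WT. On a linear scale the group means of 53,54, 25,26 and QM were 129%, 76% and 9.595% of the WT mean. On the second probe set (1430388_a_at) they were 127.5%, 57.71% and 7.73%.

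The double-domain form fell far below the others. The log2 difference of QM from WT was -3.38 ± 0.25, or 10.4-fold lower in QM (limma adjusted p = 4.56e-09), with all QM samples below all WT samples, against 13.9% of genes called. It was higher in 25,26 than in QM by 2.99 ± 0.25 (limma adjusted p = 6.99e-07) and higher in 53,54 than in QM by 3.75 ± 0.28 (limma adjusted p = 1.22e-08), with no overlap in either comparison. In these 2 comparisons 0.675% and 13.3% of genes were called. In log2 units the difference of QM from Null was 32.7% of the difference of WT from Null, against 107.3% for 53,54 and 92.1% for 25,26. Bulk RNA cannot tell a lower level in every cell apart from fewer cells with Sulf2.

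The 53,54 and 25,26 samples did not overlap, but this difference did not pass the test. The lowest 53,54 sample stood at 13.03 and the highest 25,26 sample at 13.00. The log2 difference of 53,54 from 25,26 was 0.76 ± 0.25 (limma adjusted p = 0.101), in a comparison in which 4.67% of genes were called and 10.6% did not overlap. With the title number as a replicate block, which pairs these samples, it was 0.80 (limma adjusted p = 0.0164). The second probe set gave 1.14 (limma adjusted p = 0.00802).

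Sulf2 has 3 probe sets, of which 2 followed this order. The second, 1430388_a_at, stood at 12.38, 12.20 and 11.53 in 53,54, at 10.82, 11.24, 11.35, 10.46 and 10.59 in 25,26, at 8.11, 7.86 and 8.0 in QM, from 11.46 to 12.15 in WT (median 11.63) and from 5.73 to 6.68 in Null (median 6.43). Here the log2 difference of 25,26 from WT was -0.79 ± 0.19 (limma adjusted p = 0.0199), and every 25,26 sample lay below the lowest WT sample. The correlation of the 2 probe sets over the 23 samples was 0.987. The third, 1442408_at, stood between 8.61 and 9.24 in all 23 samples and correlated with the others at -0.118 and -0.15. Why it differs from the other 2 was not tested.

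**Figure D1:**
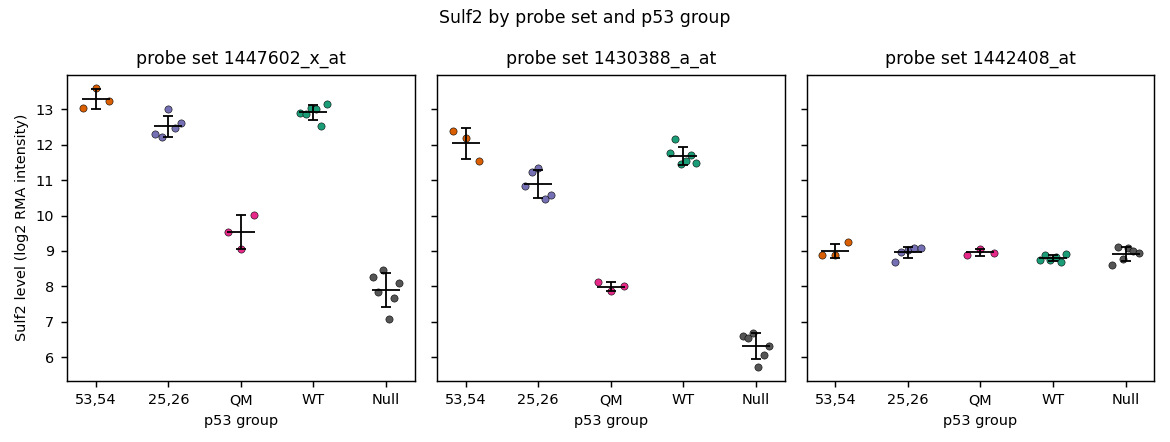
Log2 level of each of the 3 Sulf2 probe sets in each sample, by group, with the mean and SD as a bar. On 1447602_x_at and 1430388_a_at the QM samples lie between Null and the other forms, and 1442408_at stays between 8.61 and 9.24.

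The WT and Null groups join samples of 2 origins, and the difference of Sulf2 was seen within each. It stood at 12.90, 12.87 and 13.04 in LSL-WT Cre, against 8.25, 7.83 and 8.45 in LSL-WT Empty, LSL-WT samples with and without Cre. It stood at 13.02, 12.53 and 13.15 in WT Cre, against 7.07, 7.68 and 8.08 in Null Cre. The log2 differences were 4.76 ± 0.27 and 5.29 ± 0.27. They differed from each other by 0.53 ± 0.38 (limma adjusted p = 0.865, 0.00655% of genes called). Sulf2 did not differ beyond the spread between LSL-WT Cre and WT Cre (0.04 ± 0.27, limma adjusted p = 0.989, 0.983% of genes called). The difference between LSL-WT Empty and Null Cre was 0.57 ± 0.27 (limma adjusted p = 0.686, 0.216% of genes called).

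Few of the other members passed the test in the main fit, which does not pair samples and gave the counts in this paragraph. With the title number as a replicate block, Extl3 and Hs2st1 were called in 53,54 against Null and in QM against WT. The block called 4847 and 4025 of 15266 genes there. Of the 8 other members, 3 were called higher and none lower in WT against Null, where limma called 22.7% of all tested genes and 10.9% higher. In 53,54 against Null none of 8 was called, with 0 at an unadjusted p under 0.05, against 19.6% of genes. In 25,26 against Null none was called, with 2 at an unadjusted p under 0.05 (Ext1 and Ndst2), against 4.30% of genes. In QM against Null none was called, with 0 at an unadjusted p under 0.05, against 0.0131% of genes. Between the p53 forms no member was called in 6 comparisons, with 1 at an unadjusted p under 0.05 in 25,26 against WT (Sulf1) and 2 in QM against WT (Sulf1 and Extl3). Of all genes, 0.367% were called for 53,54 and WT, 7.70% for 25,26 and WT and 13.9% for QM and WT. The share was 0.675% for 25,26 and QM, 13.3% for 53,54 and QM and 4.67% for 53,54 and 25,26. The largest log2 difference of any of the 8 from Null was 0.28 in 53,54, 0.40 in 25,26, 0.40 in QM and 0.46 in WT. Between the p53 forms it reached 0.86 (QM and WT) and 0.79 (25,26 and WT), both for Sulf1. Over all 10 comparisons of the 5 groups, which share samples, 3 of 80 tests were called, all in WT against Null. The groups overlapped for each of the 8 in each comparison. Between the p53 forms, the share of all genes without overlap was 2.59% for 53,54 and WT, 4.43% for 25,26 and WT, 15.3% for QM and WT, 8.36% for 25,26 and QM, 28.6% for 53,54 and QM and 10.6% for 53,54 and 25,26. Between the subgroups, 1 of the 8 did not overlap in LSL-WT Cre against LSL-WT Empty (Extl3, 26.1% of all genes), 2 in WT Cre against Null Cre (Ext2 and Hs2st1, 26.9%), 0 in LSL-WT Empty against Null Cre (10.7%) and 1 in LSL-WT Cre against WT Cre (Ext2, 12.9%).

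**Figure D2:**
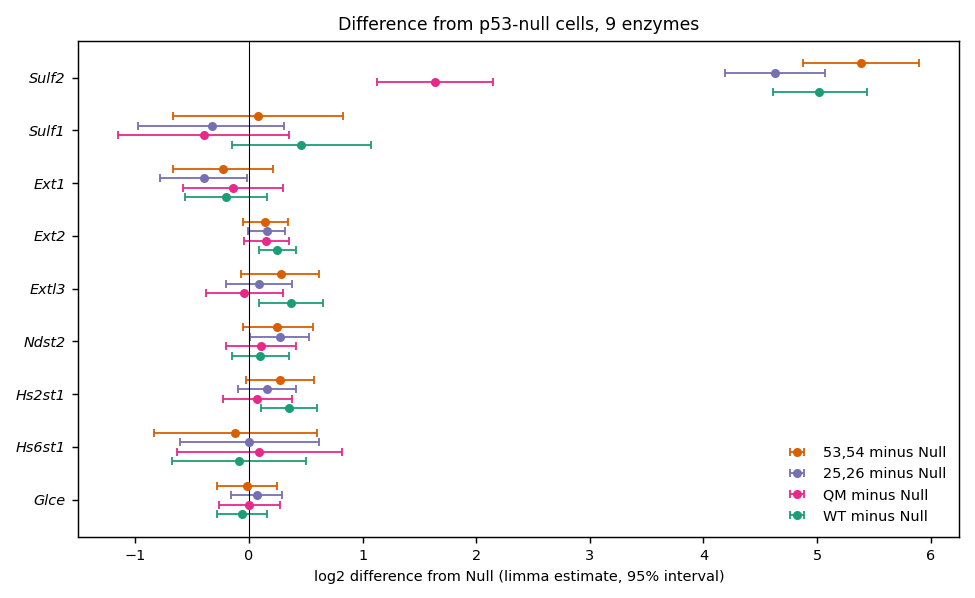
Log2 difference from Null, with 95% interval, for the 9 members in each p53 form. Sulf2 was chosen as raised against Null, so its place apart from the others and its intervals are a description, with no test. The largest difference of the others from Null is 0.46.

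The other extracellular sulfatase, Sulf1, was highest on average in the WT Cre samples. On its representing probe set (1438200_at) it stood at 9.49, 9.82 and 9.85 in 53,54, at 9.48, 8.77, 9.55, 9.39 and 9.35 in 25,26, and at 8.53, 9.33 and 9.87 in QM. It stood at 10.92, 9.78 and 11.30 in WT Cre, 9.49, 9.07 and 10.07 in LSL-WT Cre, 9.18, 9.60 and 9.84 in LSL-WT Empty and 10.05, 9.59 and 9.59 in Null Cre. WT Cre differed from Null Cre by 0.92 ± 0.35 (limma adjusted p = 0.0881, 15.9% of genes called, 8.75% higher) and LSL-WT Cre from WT Cre by -1.12 ± 0.35 (limma adjusted p = 0.158). With the replicate block, which pairs LSL-WT Cre with WT Cre, the difference of LSL-WT Cre from WT Cre passed the test (limma adjusted p = 0.0405). LSL-WT Cre and LSL-WT Empty differed by 0.00 ± 0.35 (limma adjusted p = 0.998, 11.7% of genes called). Without WT replicate 5, WT Cre stood above Null Cre by 1.36 (limma adjusted p = 0.0117) and LSL-WT Cre differed from WT Cre by -1.56 (limma adjusted p = 0.0239). Against the whole WT group Sulf1 did not pass the test, at -0.79 ± 0.31 in 25,26 (limma adjusted p = 0.135) and -0.86 ± 0.36 in QM (limma adjusted p = 0.134), and it differed by 0.46 ± 0.30 between WT and Null (limma adjusted p = 0.315). With the WT Cre samples alone as WT, an alternative chosen after seeing the data, it was higher in WT than in Null by 1.02 (limma adjusted p = 0.0182) and differed by -1.35 in 25,26 (limma adjusted p = 0.00806) and -1.42 in QM (limma adjusted p = 0.00879) from WT. With the other 5 WT samples but not replicate 2, the differences of 25,26 and QM from WT were -1.0 and -1.07 (limma adjusted p = 0.0413 and 0.0401). The second probe set 1436319_at gave 0.90 ± 0.38 between WT Cre and Null Cre (limma adjusted p = 0.141). Sulf1 stayed uncalled under 16 of 20 other settings in WT Cre against Null Cre and 18 of 20 in LSL-WT Cre against WT Cre. It stayed so under 24 of 27 in 25,26 against WT, 23 of 25 in QM against WT and 28 of 29 in WT against Null.

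Xist, the RNA that silences an X chromosome in female cells, was read as a sign of sex. It stood at a log2 level of 11.47 to 11.86 in WT Cre, against 5.72 to 6.81 in Null Cre, so that sex and p53 cannot be told apart there. It stood at 6.40, 12.71 and 6.42 in LSL-WT Cre, against 6.77, 12.62 and 6.32 in LSL-WT Empty. In 53,54 it stood at 6.24, 12.37 and 6.72, and in QM at 12.28, 12.19 and 6.70. The 25,26 samples were at 12.70, 12.58, 12.21, 6.63 and 12.12. The mix of high and low levels thus differed between the 5 groups as well. With the level of Xist in the model, an alternative chosen after seeing the data, Sulf1 differed by 1.16 between WT Cre and Null Cre (limma adjusted p = 0.0855). For Sulf2 the difference was then 5.06 between WT and Null and 5.46 between WT Cre and Null Cre. Between 53,54 and 25,26 the Sulf2 difference was then 0.72 (limma adjusted p = 0.149).

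**Figure D3:**
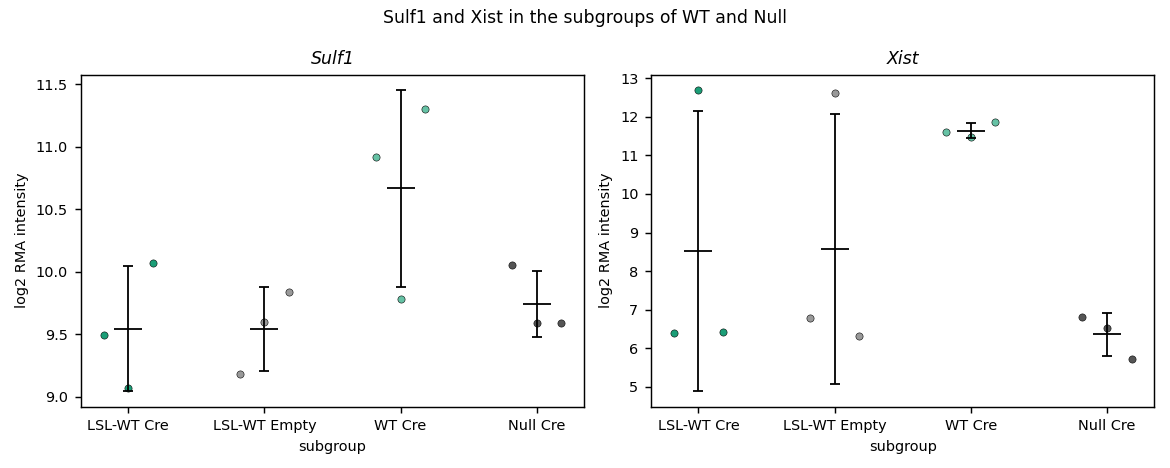
Log2 level of Sulf1 (1438200_at) and of Xist in each sample of the WT and Null groups, split by origin and virus, with the mean and SD as a bar. For Sulf1 the WT Cre samples, at 10.92, 9.78 and 11.30, reach highest, and for Xist the WT Cre and Null Cre samples lie apart.

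Of the chain-lengthening enzymes, Ext2 and Extl3 were somewhat higher in WT than in Null. Ext2 (1460170_at) averaged 10.84 ± 0.15 in WT and 10.59 ± 0.10 in Null (SD, n = 6 each), a log2 difference of 0.25 ± 0.08 (limma adjusted p = 0.0186). Within WT Cre and Null Cre it stood at 11.05, 10.88 and 10.91 against 10.73, 10.43 and 10.54, with no overlap and a difference of 0.38 ± 0.10 (limma adjusted p = 0.0128). Between LSL-WT Cre and LSL-WT Empty it was 0.12 ± 0.10 (limma adjusted p = 0.559). The call in WT against Null was lost under 7 of 29 other settings, among them without Null replicate 5 (limma adjusted p = 0.0506), without WT replicate 4 (0.0514) and with the level of Xist in the model (0.0647). Without either of these samples the call in WT Cre against Null Cre was lost as well (0.0742 and 0.0665).

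Extl3 (1434703_at) averaged 9.77 ± 0.23 in WT and 9.40 ± 0.27 in Null, a log2 difference of 0.37 ± 0.13 (limma adjusted p = 0.0496). The call sat at the threshold and was lost under 17 of 29 other settings, over which the difference was 0.30 to 0.47. It was lost without each of WT replicates 1, 2 and 5 and Null replicates 1, 3, 5 and 6 (limma adjusted p = 0.0593 to 0.131). LSL-WT Cre samples did not overlap LSL-WT Empty samples (9.70, 10.01 and 9.62 against 9.28, 9.55 and 9.18). The main fit gave 0.44 ± 0.20 there (limma adjusted p = 0.188) and 0.31 ± 0.20 between WT Cre and Null Cre (0.351). It gave 0.28 ± 0.16 for 53,54 against Null (limma adjusted p = 0.29) and -0.41 ± 0.16 for QM against WT (0.111). With the replicate block, Extl3 was higher in LSL-WT Cre than in LSL-WT Empty by 0.44 (limma adjusted p = 7.04e-04), and in 53,54 than in Null by 0.29 (limma adjusted p = 0.00645). With the block its difference of QM from WT was -0.41 (limma adjusted p = 5.52e-04). The block called 4078, 4847 and 4025 of 15266 genes in these comparisons. Ext1 (1417730_at) did not pass the test in WT against Null (-0.20 ± 0.17, limma adjusted p = 0.476) or in 25,26 against Null (-0.40 ± 0.18, limma adjusted p = 0.266). It averaged 11.24 ± 0.34 in 53,54, 11.06 ± 0.20 in 25,26, 11.33 ± 0.33 in QM, 11.26 ± 0.26 in WT and 11.46 ± 0.41 in Null (SD), and Null replicate 4 was its highest sample at 12.19. Its difference of LSL-WT Cre from WT Cre was -0.26 ± 0.22 in the main fit (limma adjusted p = 0.763). With the replicate block this was -0.26 (limma adjusted p = 0.039), where the block called 1359 of 15266 genes.

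Of the sulfating and epimerising enzymes, Hs2st1, the 2-O-sulfotransferase, was called. On its representing probe set (1450729_at) it averaged 11.63 ± 0.19 in WT and 11.27 ± 0.24 in Null, a difference of 0.35 ± 0.12 (limma adjusted p = 0.0333). In WT Cre it stood at 11.91, 11.49 and 11.76, against 10.88, 11.22 and 11.32 in Null Cre, a difference of 0.58 ± 0.16 (limma adjusted p = 0.0161). Between LSL-WT Cre and LSL-WT Empty, which overlapped, the difference was 0.13 ± 0.16 (limma adjusted p = 0.757). The call in WT against Null was lost under 13 of 31 other settings, among them without each of WT replicates 1, 4 and 6 and Null replicates 2, 4 and 5 (limma adjusted p = 0.0536 to 0.0876). The call in WT Cre against Null Cre was lost without Null replicate 4 (0.086) or WT replicate 4 (0.0865). No other probe set of the gene was called: in WT against Null they gave 0.19 (1450730_at), 0.02 (1422739_at) and -0.22 (1440905_at). For 1450729_at the main fit gave 0.27 ± 0.14 in 53,54 against Null (limma adjusted p = 0.233) and -0.28 ± 0.14 in QM against WT (0.245). With the replicate block Hs2st1 was higher in 53,54 than in Null by 0.31 (limma adjusted p = 0.0255), and its difference of QM from WT was -0.28 (limma adjusted p = 0.0472). The block called 4847 and 4025 of 15266 genes there. Hs6st1, the 6-O-sulfotransferase, differed by -0.09 ± 0.28 between WT and Null (limma adjusted p = 0.881), Ndst2 by 0.10 ± 0.12 (limma adjusted p = 0.633) and Glce by -0.06 ± 0.10 (limma adjusted p = 0.774). Hs6st1 (1417293_at) had a wide spread within groups: it averaged 8.83 ± 0.68 in 53,54, 8.95 ± 0.67 in 25,26, 9.04 ± 0.37 in QM, 8.86 ± 0.44 in WT and 8.95 ± 0.44 in Null (SD). Glce (1428374_at), the epimerase gene, lay close together at 9.95 ± 0.24 in 53,54, 10.04 ± 0.11 in 25,26, 9.97 ± 0.26 in QM, 9.91 ± 0.19 in WT and 9.97 ± 0.14 in Null. Ndst2 (1417931_at) averaged 9.03 ± 0.11 in 53,54, 9.04 ± 0.17 in 25,26, 8.88 ± 0.17 in QM, 8.88 ± 0.32 in WT and 8.78 ± 0.15 in Null.

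**Figure D4:**
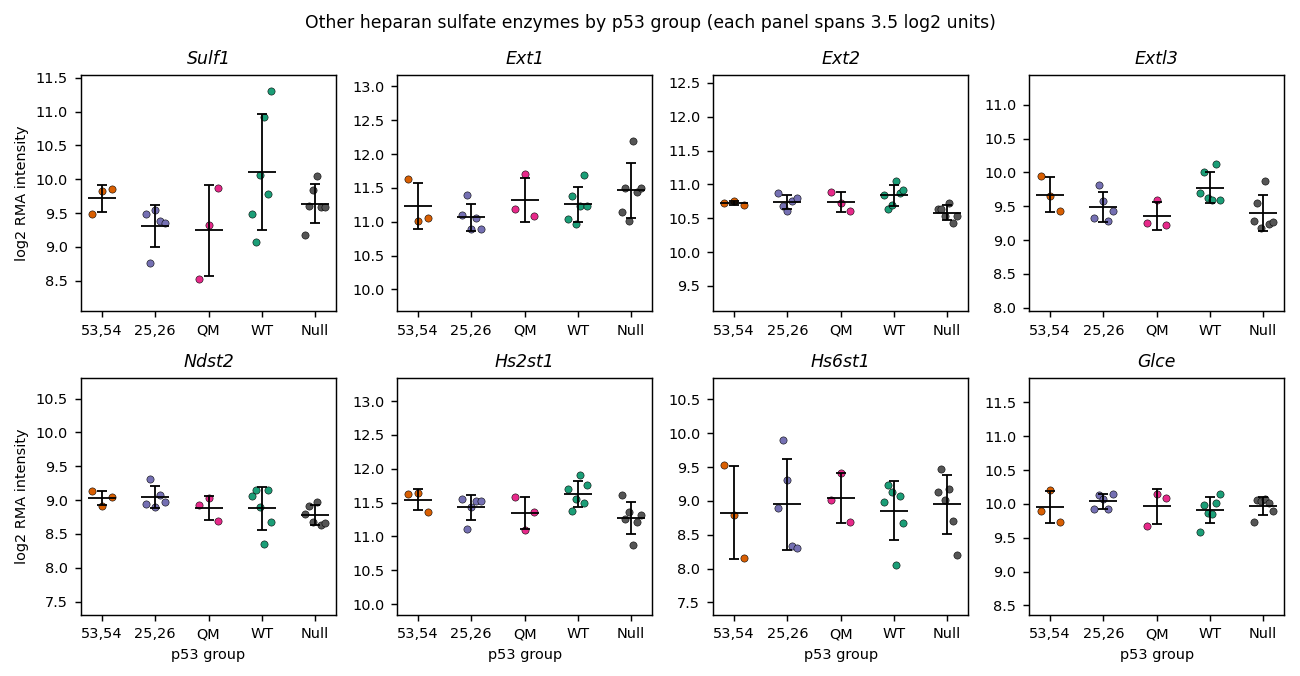
Log2 level of the 8 members other than Sulf2 in each sample, by group, with the mean and SD as a bar, each panel on its own range. The groups overlap for every gene.

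Several members shifted with the number in the sample title, which was noticed after the values were seen. The sample numbered 2 was the highest of its subgroup in all 7 subgroups for Ext1, Extl3, Ndst2 and Hs6st1, by 0.50, 0.43, 0.29 and 0.69 on average over the others. It was the lowest in all 7 for Sulf2 (1447602_x_at), by -0.50 on average, but not for 1430388_a_at, at 0.14. Of all tested genes, 8.25% were highest and 7.68% lowest in all 7 subgroups. The cause was not tested.

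Some other genes tracked Sulf2 closely, which is a description of likeness over samples that share the groups. Over the 23 samples the highest Pearson correlations with Sulf2 were those of Zmat3 (0.979), a zinc-finger RNA-binding protein gene, Crip2 (0.976), a LIM-domain protein gene, Ptpn14 (0.973), a phosphatase gene, Cep170b (0.963) and Ccng1 (0.961), the cyclin G1 gene. Over the 17 samples other than Null they were those of Ccng1 (0.951), Zmat3 (0.950), Crip2 (0.947), Abhd4 (0.947) and Tcn2 (0.939). Crip2 differed from Null by a log2 value of 3.64 in 53,54, 2.88 in 25,26, 1.03 in QM and 3.34 in WT. The members with the nearest values over 23 samples were Hs2st1 at 0.60 (0.47 over 17), Ext2 at 0.52 (0.10) and Extl3 at 0.40 (0.39). Sulf1 was at 0.41 over 17 samples but at 0.19 over 23. Ext1 was at -0.47 over 23 samples and -0.30 over 17.

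Of 87 tested genes of the wider pathway, 17 were called higher and 10 lower in WT against Null, and 10 higher and 6 lower in 53,54 against Null. Of all tested genes 22.7% were called in WT against Null and 19.6% in 53,54 against Null. In 25,26 against Null 1 was called higher, against 4.30% of all genes, with 15 at an unadjusted p under 0.05. In QM against Null limma called none, against 0.0131% of all genes, with 2 at an unadjusted p under 0.05. The lists were written with earlier results of these data known. Their list medians lay within 0.28 of zero in WT against Null, where the median of all genes was 0.

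Of 12 core proteins, 3 were called higher and 1 lower in both WT and 53,54 against Null, where 22.7% and 19.6% of all tested genes were called, as for the lists that follow. Gpc4, a glypican, was higher than in Null by 0.51 ± 0.09 in 53,54 (limma adjusted p = 2.2e-04) and by 0.51 ± 0.07 in WT (limma adjusted p = 1.91e-05). Col18a1, a basement-membrane collagen that bears heparan sulfate, was higher by 1.77 ± 0.31 in 53,54 and 1.19 ± 0.26 in WT. Sdc3, a syndecan, was higher by 0.76 ± 0.21 in WT, and Agrn, the agrin gene, by 0.61 ± 0.21 in 53,54. Gpc6, another glypican, fell by 0.66 in 53,54 and by 0.69 in WT.

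Of 12 other chain-building and sulfating enzymes, 2 were called higher and 2 lower in WT against Null. Hs3st1, a 3-O-sulfotransferase, was higher by 1.24 ± 0.20 (limma adjusted p = 1.1e-04) and Ndst3, an N-sulfotransferase gene, fell by 0.83. In 53,54 against Null 3 were called higher and 1 lower. Hs3st1 was higher there by 0.86 ± 0.25 (limma adjusted p = 0.0166) and Hs6st2, a 6-O-sulfotransferase gene, fell by 0.81. Of 8 other sulfatases and their activators, 1 was called higher in 53,54 and 2 in WT against Null, and 0 lower. Sumf1, the enzyme that activates sulfatases including Sulf1 and Sulf2, was higher by 0.53 ± 0.13 in 53,54 (limma adjusted p = 0.00682) and by 0.69 ± 0.11 in WT (limma adjusted p = 8.07e-05). Of 8 genes of sulfate donor supply, Papss1, which makes the sulfate donor, fell by 0.39 in 53,54 and by 0.44 in WT. Of 6 tested enzymes that link the chain to its core protein, 1 was called higher in WT and 1 in 53,54 against Null, and 0 lower.

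Of 8 heparanase and lysosomal genes, 4 were called higher and 1 lower in WT against Null. Sgsh and Naglu, lysosomal enzymes of heparan sulfate breakdown, were higher by 0.54 ± 0.11 and 0.64 ± 0.16, and Hpse, the heparanase gene, fell by 0.80. Of 18 growth factors and receptors that bind heparan sulfate, Fgf18 was higher than in Null by 2.60 ± 0.37 in 53,54 (limma adjusted p = 2.21e-05), by 1.26 ± 0.31 in 25,26 (limma adjusted p = 0.023) and by 1.43 ± 0.30 in WT. Mdk, the midkine gene, fell by 1.62 in WT, where 1 gene of this list was called higher and 3 lower. Of 15 chondroitin and dermatan sulfate enzymes, 4 were called higher and 2 lower in WT.

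Against WT, 4 of the 87 genes were called higher and 8 lower in 25,26, and 6 higher and 10 lower in QM, where 7.70% and 13.9% of all tested genes were called. These comparisons share the WT samples. Gpc4 fell by 0.38 in 25,26 and by 0.52 in QM, and Sumf1 fell by 0.45 in each. Hs3st1 fell by 1.18 in QM (limma adjusted p = 0.00252). Mdk was higher than in WT by 1.93 ± 0.39 in 25,26 and by 1.57 ± 0.46 in QM. In 53,54 against WT limma called none of the 87, against 0.367% of all genes, with 8 at an unadjusted p under 0.05. Between 53,54 and 25,26, where 4.67% of all genes were called, it called 3, of which Fgf18 and Gpc4 were higher in 53,54 by 1.34 ± 0.38 and 0.37 ± 0.09, and Gpc6 fell by 0.76.

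**Figure D5:**
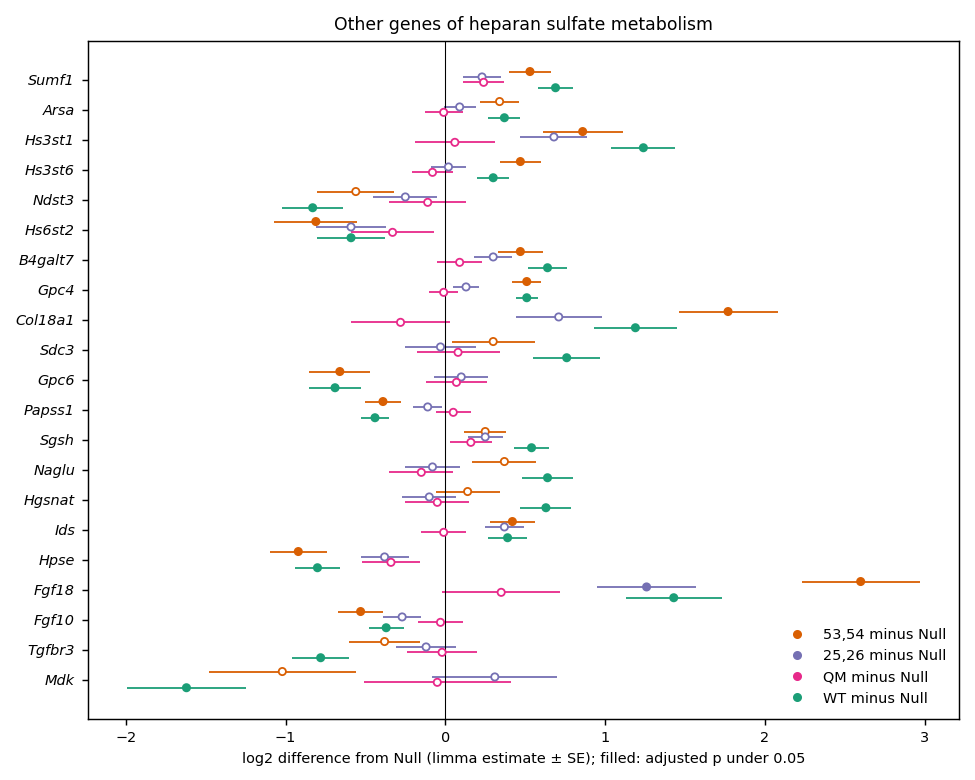
Log2 difference from Null, with the SE as a bar, in each p53 form for the pathway genes called in WT against Null other than the chondroitin enzymes, with filled points for an adjusted p under 0.05. The growth factor gene Fgf18 reaches 2.60 in 53,54.

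The fibroblast label was checked against markers. All 8 fibroblast markers lay above the filter in all samples, though Col3a1 and Pdgfrb were lower in WT than in Null by 0.92 and 0.83. Of all tested genes 22.7% were called in WT against Null. Of 7 epithelial markers, Cldn4 and Krt18 were called higher in WT and the median difference of the list was 0.05. The epithelial summed intensities were 4429 to 6211 in 53,54, 2950 to 7227 in 25,26 and 3052 to 4514 in QM. They were 3539 to 6519 in WT and 1594 to 4070 in Null. Of 3 endothelial markers tested, 0 were called in WT against Null and 1 was higher in WT Cre against Null Cre, where 15.9% of genes were called. The endothelial sums were 205.8 to 362.1 in WT and 205.5 to 228.3 in Null. Of 4 macrophage markers tested 1, Cd68, was called, higher than in Null by 1.86 in 53,54 and by 1.25 in WT. Of all tested genes 19.6% and 22.7% were called there. The median difference of the 4 was 0 in 53,54 and -0.01 in WT. The summed intensities of the list, which include Cd68, were 534.9 to 591.8 in 53,54, 350.9 to 606.7 in WT and 290.1 to 378.3 in Null. Their part in the results on Sulf2 and the other members was not tested.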

How the data were processed

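RNA was measured on Affymetrix arrays. The authors deposited an intensity per probe set on a linear scale, made with RMA per the submitters' processing notes, with version and options not given in the sources used here. These intensities, deposited from 8.548 to 32042.1, were taken to log2. The table held 45101 probe sets, including 64 controls that were dropped; 34945 others had 1 symbol, 932 had several and 9160 had none. Each of 18193 genes was represented by its probe set of highest mean. Genes with at least 3 arrays above the 30th percentile (log2 4.79) were tested, which left 15266. Array medians were 59.9 to 64.22, and the number of arrays limits the precision. limma 3.58.1 in R 4.3.3 fitted 5 group means, or 7 subgroup means for parts of the WT comparison, tested by moderated two-sided statistics, with p-values adjusted after Benjamini and Hochberg across the tested genes and called under 0.05. The fit was run on simulated data with independent noise in each array, which cannot show how it behaves on arrays paired by title number. The text names all members, up to 4 called genes per pathway list with the largest statistic, and the 5 genes most correlated with Sulf2 over all and over non-Null arrays. Members and lists were chosen with earlier results of these data known. Equal title numbers were taken to pair arrays where there were at least 3 same-number pairs and all their residual correlations were over 0.1. This held in 53,54 with 25,26 (lowest 0.285), LSL-WT Cre with LSL-WT Empty (0.72) and LSL-WT Cre with WT Cre (0.3). It also held in the comparisons of the 5 groups with Null and WT. It did not hold in 25,26 with QM, 53,54 with QM, WT Cre with Null Cre or LSL-WT Empty with Null Cre. Alternatives were a filter on low values or none, other probe-set rules, normalization, strain, block, weights, subsets and each array left out. The targeted gene is not analysed here.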

Additional observations from a re-analysis of the deposited data

Results flagged for a closer look

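In the 25,26 group, replicate 2 stood apart for Sulf1 and for Hs2st1. Its title number is 2. Over the 7 subgroups the sample numbered 2 was the lowest in 6 for Hs2st1 (1450729_at). For Sulf1 (1438200_at) the sample numbered 2 was the lowest in 4 and the highest in 1. Whether the title number bears on the values of replicate 2 was not tested. For Sulf1 replicate 2 was at a log2 level of 8.77, where the other 4 lay between 9.35 and 9.55, so that its gap was 0.737 of the group's range. For Hs2st1 it was at 11.11, where the others lay between 11.44 and 11.56, and its gap was 0.731 of the range. Of 27 groups of 4 or more samples examined these 2 were flagged, and chance flags about 1 in 20.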

How the results depend on the processing

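Over the settings other than the third probe set and the mean of the probe sets, the Sulf2 difference from Null was 5.23 to 5.71 for 53,54, 4.46 to 4.91 for 25,26, 1.40 to 1.93 for QM and 4.86 to 5.36 for WT. The mean of the probe sets gave 3.73, 3.08, 1.12 and 3.42 for these forms, and 3.30 in LSL-WT Cre and 3.54 in WT Cre against their own Null samples. The third probe set alone gave 0.08, 0.05, 0.04 and -0.12, then -0.05 and -0.20, and 0.16 for QM against WT, 0.01 for 25,26 against QM and 0.04 for 53,54 against QM. The second probe set gave -0.79 for 25,26 against WT, 1.14 for 53,54 against 25,26 and 5.18 for LSL-WT Cre against LSL-WT Empty. The difference of 53,54 from 25,26 passed the threshold with array weights (0.95), the mean of the probe sets (0.65), the replicate block (0.80) and the samples numbered 2 left out (0.82, chosen after seeing the data). For Hs2st1 the probe set 1440905_at gave -0.22 in WT against Null and -0.83 in WT Cre against Null Cre. The number of other members called in WT against Null was 1 with the mean of the probe sets or Null Cre alone as Null, and 0 with Xist in the model, the compared arrays alone or LSL-WT Cre alone as WT, and 0 to 3 without single samples. Of 15266 genes, 2534 were called with Null Cre alone, 2810 with Xist and 2800 with the compared arrays alone. With LSL-WT Cre alone 2469 were called, and 3036 to 3472 without single samples. The mean of the probe sets called 3480 of 14773. In WT Cre against Null Cre the number of other members called was 5 with the replicate block and 1 with the mean of the probe sets or Xist. It was 0 with the compared arrays alone and 0 to 3 without single samples. Of 15266 genes, the block called 4297 there, Xist in the model 1306 and the compared arrays alone 1186. Without single samples 1648 to 2571 were called, and the mean of the probe sets called 2489 of 14773. With the replicate block the number of other members called was 2 in 53,54 against Null, QM against WT and LSL-WT Cre against WT Cre. There the block called 4847, 4025 and 1359 of 15266 genes. The number was 1 in 53,54 against QM, LSL-WT Cre against LSL-WT Empty and LSL-WT Empty against Null Cre, where the block called 3580, 4078 and 75 genes. Samples were not taken as paired in WT Cre with Null Cre, 53,54 with QM or LSL-WT Empty with Null Cre. With array weights the number of other members called was 2 in 25,26 against Null, 3 in 53,54 against Null and 1 in 25,26 against WT. The weights called 1435, 5457 and 2288 of 15266 genes there. With WT Cre alone as WT the number of other members called was 1 in 25,26 against WT and in QM against WT. This setting called 1482 and 2089 of 15266 genes. With the samples numbered 2 left out the number was 1 in QM against WT and LSL-WT Cre against LSL-WT Empty, with 1444 and 1157 genes called. Without single samples the number of other members called was 0 to 1 in 25,26 against WT, QM against WT and LSL-WT Cre against WT Cre. Of 15266 genes, 713 to 1329, 1399 to 2141 and 23 to 277 were called there. With the block 11 of 87 pathway genes were called in 25,26 and 27 of 87 in 53,54 against Null. Of all 15266 genes, the block called 2167 and 4847 there. WT Cre alone as WT, Xist in the model and the samples numbered 2 left out were chosen after seeing the data. The causes were not tested. The few arrays per group limit what small differences can be called.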
